A study of Mus musculus with 12 samples.

Results

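Of 42022 array probes, 182 (0.433%) lay above the median of their array in all 3 samples of the NS-GFP1+ fraction and below it in all 3 samples of the NS-GFP4+ fraction. These 182 probes, which crossed the array median between the ends of a reporter gradient, are described here. They were chosen on the measured values of both end fractions, so their fall between the ends is how they were picked and is given without a test. For size, 207 probes crossed the median the opposite way. The cells were LSK cells, lineage-negative bone marrow cells that carry Sca1 and Kit, from C57BL/6 mice with a green fluorescent protein (GFP) transgene driven by a region of the NS promoter. NS is commonly read as nucleostemin (Gnl3), a protein of the nucleolus. By GFP level, a cell sorter parted them into 4 fractions called NS-GFP1+, NS-GFP2+, NS-GFP3+ and NS-GFP4+, each with 3 samples, and every sample carried the same transgene and strain background. No age, sex or treatment is given in the labels, nor which fraction number is the brightest, and the fractions are sorted by reporter signal, not by NS protein. Total RNA was labelled with 1 dye and run on Agilent mouse expression arrays. The labels do not say whether the 3 samples of a fraction came from separate mice, so the p-values given here rest on a spread between samples that may be purely technical.

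The LSK compartment holds hematopoietic stem cells and the multipotent progenitors that descend from them. Among the progenitors, the lymphoid-primed ones begin to transcribe genes of the lymphoid program, such as the recombinase gene Rag1 and the surrogate light chain gene Igll1, before they commit to the B or T lineage, while stem cells have little of these transcripts. In RNA of a sorted fraction, fewer cells of a type and less RNA per cell cannot be told apart.

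Values are the authors' deposited log2 values, whose array medians were 6.11 to 6.12 and whose lowest values were 2.25. A pair of arrays stood apart before any result was read. The per-array files of NS-GFP3+ replicate 3 and NS-GFP2+ replicate 3 are identical in all 42071 rows. Their columns in the table of log2 values share 70 values. Which of these arrays the shared file belongs to is not settled. The table was therefore used, and the main counts that rest on NS-GFP3+ are given with and without NS-GFP3+ replicate 3. Where no value without it is given, that array is included. Kit averaged 12.90 log2 units in NS-GFP4+ and 12.69 in NS-GFP1+, with limma's adjusted p of 0.656, and Gnl3 averaged 10.41 in NS-GFP4+ and 10.67 in NS-GFP1+, with an adjusted p of 0.238.

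A table of the array platform pairs 135 of the 182 probes with 1 gene and leaves 47 unnamed here. The 135 probes stand for 132 genes: 127 probes match protein-coding genes, 6 match long non-coding RNAs, 1 a pseudogene and 1 a variable segment of a T cell receptor. Probes with a named gene made up 74.2% of the 182 and 58.1% of all 42022. Probes whose ID starts with A_30 made up 13.7% of the 182 and 26.4% of all. Ifi209, Ctnnd2 and Dusp22 each have a pair of probes in the set.

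The working name of the set calls these probes switched off, and the values do not bear that out for most. Only 7 of 182, those of Lef1, Chst3, Bst1, Ptpro, Cx3cr1, Slamf6 and Gm525, lay under the 25th percentile of every NS-GFP4+ array, a count chosen after the values were seen. On the scale of the per-array files, where the lowest intensities of the arrays were 4.27 to 5.45, mean intensities of the 182 probes ran from 5.51 to 68.8 in NS-GFP4+ (median 48.8) and from 66.7 to 947 in NS-GFP1+ (median 94.7). The array median is not a detection limit, and the files used carry no detection flag. At the other side, Igll1 and Gfra2 were the members above the 75th percentile of every NS-GFP1+ array.

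The end-to-end difference, NS-GFP4+ minus NS-GFP1+, ran from -5.30 to -0.21 log2 units with a median of -1.16, or 2.24-fold lower. It reached at least 1 log2 unit for 107 probes, at least 2 for 52, at least 3 for 18 and at least 4 for 9. The fall exceeded 2 pooled standard deviations for 162 of the 182, where the median standard deviation between replicates was 0.29 log2 units. The choice of the probes favoured such falls, and the share over all probes was not counted. Under the same limma fit 144 of the 182 were called lower in NS-GFP4+ than in NS-GFP1+ (158 with the replicate number as a block), beside 5.94% of the 20920 probes tested (9.71% with the block), and nothing is read from these counts because the choice of the probes fixed them. All 182 passed the filter for testing through NS-GFP1+, again by their choice, and 107 passed it only through that fraction.

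Nearest to the threshold on the inside were an unnamed probe (A_30_P01019639), whose closest array lay 0.0014 log2 units from the median, Tmtc1 at 0.0031 and Commd8 at 0.0042. Nearest on the outside were an unnamed probe (A_30_P01018987) at 0.0017, Triml2 at 0.0018 and Hlx at 0.0022. A few members had 1 array far from its replicates. Tmtc1, a transmembrane protein of the endoplasmic reticulum, read, in order of replicate number, 5.80, 6.09 and 5.59 log2 units in NS-GFP4+ and 6.12, 9.11 and 6.36 in NS-GFP1+, so replicate 2 of NS-GFP1+ alone was far above the median. Egln1, an oxygen sensor that hydroxylates hypoxia-inducible factors, read 6.12, 5.91 and 6.01 in NS-GFP4+ and 7.03, 9.06 and 6.94 in NS-GFP1+, where again replicate 2 stood above the other arrays. Tmtc1 was named for its closeness to the threshold, and Egln1 was picked after its values were seen.

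The probes left the upper part of the array at different fractions. By the mean over 3 arrays, 66 were first under the median in NS-GFP2+, 48 in NS-GFP3+ and 68 in NS-GFP4+. Of the 66, 8 were back above it in NS-GFP3+, by at most 0.26 log2 units. Asking for all 3 arrays under the median in place of the mean gave 29, 31 and 122. Without NS-GFP3+ replicate 3 the counts by the mean were 66, 34 and 82. Choosing members without NS-GFP1+ replicate 2 gave 101 that left at NS-GFP2+, without NS-GFP1+ replicate 3 it gave 136, and without NS-GFP4+ replicate 3 it gave 103 that left at NS-GFP4+, as more probes meet a rule over fewer arrays.

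**Figure D1:**
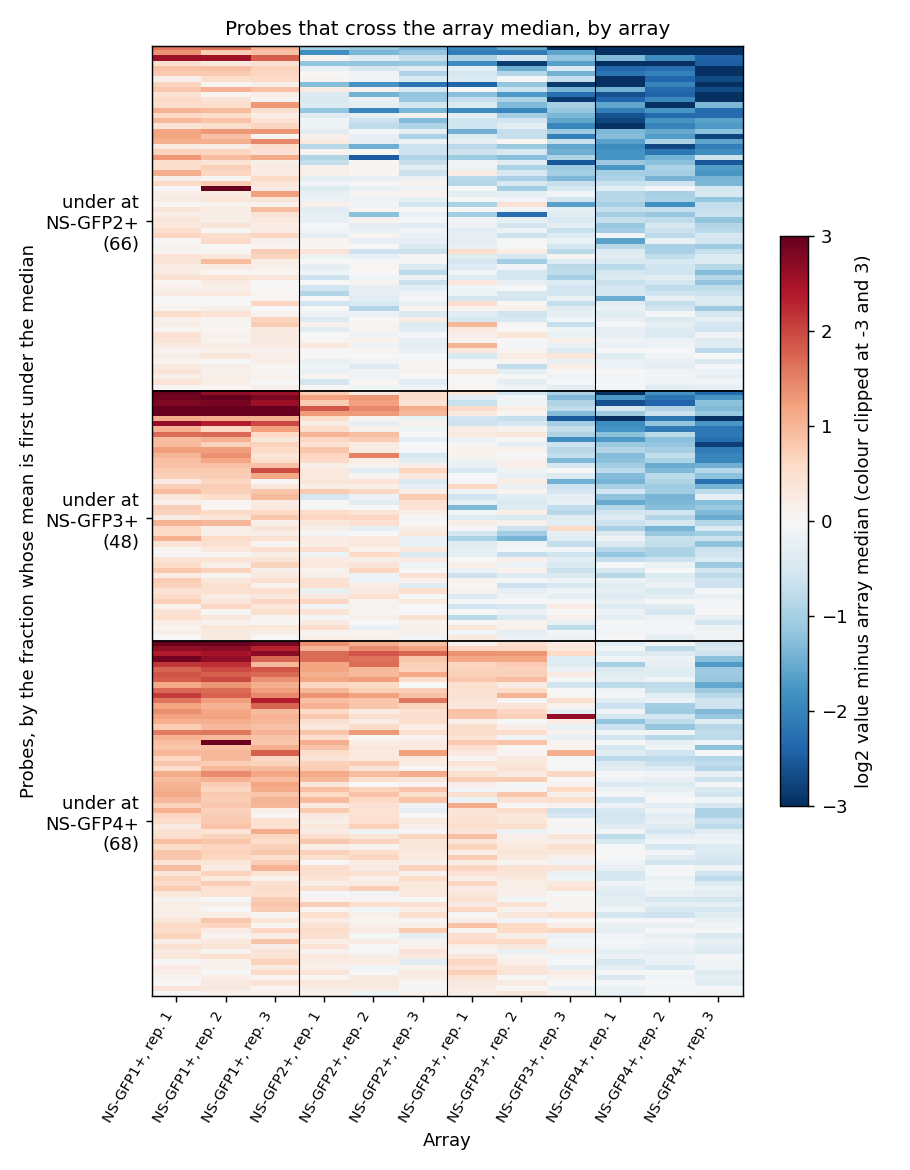
Each row is 1 of the 182 probes and each column 1 of the 12 arrays; colour gives the log2 value minus the array's median, clipped at -3 and 3. The rows are split by the fraction whose mean is first under the median (66, 48 and 68 probes), and NS-GFP3+ replicate 3 is bluer than the other NS-GFP3+ arrays, with 130 of 182 probes under the median.

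The middle fractions were in between. On single arrays 54, 68 and 80 of the 182 probes were under the median in NS-GFP2+, and 80, 93 and 130 in NS-GFP3+, where the count of 130 is replicate 3. All 6 middle arrays lay above the median for 32 probes and all 6 below it for 27. A clean change between the middle fractions, with every NS-GFP2+ array above and every NS-GFP3+ array below, was seen for 4 probes: 5830432E09Rik and the unnamed A_55_P1956598, A_55_P2063283 and A_30_P01020564. The median distance of the probes' means from the array median was 0.51 log2 units in NS-GFP1+, 0.12 in NS-GFP2+, -0.09 in NS-GFP3+ and -0.59 in NS-GFP4+. The mean fell at every step for 129 of the 182 (70.9%), and the largest of the 3 steps was the last for 103 probes, the first for 53 and the middle one for 26. At NS-GFP2+ the median probe had covered 33.9% of its end-to-end fall, and at NS-GFP3+ 55.3%.

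Genes of lymphocytes and their progenitors gave 18 probes of 18 genes, the most of the 7 role groups used here. These groups were drawn up after the values were seen and hold 53 of the 132 genes, and the share of such genes among all probes was not counted. Of these 18, 7 left at NS-GFP2+, 9 at NS-GFP3+ and 2 at NS-GFP4+. Their end-to-end differences ran from -5.30 to -0.61 with a median of -2.66 log2 units, against -1.16 over the 182. The group is described first by its recombination and B lineage genes.

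Rag1, which encodes a subunit of the recombinase that assembles antigen receptor genes, headed the set by the difference between the end means. It read 9.11, 8.76 and 8.71 log2 units in NS-GFP1+, 6.88, 6.38 and 6.63 in NS-GFP2+, 6.46, 5.58 and 5.21 in NS-GFP3+ and 2.58, 4.31 and 3.78 in NS-GFP4+. The arrays of NS-GFP1+ and NS-GFP4+ stood clear of all others, and those of NS-GFP3+ and NS-GFP2+ overlapped. The end-to-end difference was -5.30. The NS-GFP4+ intensities, 6.0, 18.4 and 19.1 against 475, 314 and 512 in NS-GFP1+, came close to the lowest of the arrays, so that size is a lower bound, as it is for Lef1 below, and the order of the pair is not settled.

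Igll1, part of the surrogate light chain of the pre-B cell receptor, read 10.18, 10.18 and 9.69 in NS-GFP1+, 7.98, 7.56 and 7.21 in NS-GFP2+, 6.69, 6.30 and 5.35 in NS-GFP3+ and 5.59, 5.23 and 4.79 in NS-GFP4+. Each fraction lay below the one before it without overlap except NS-GFP4+, whose highest array was above the lowest of NS-GFP3+. The end-to-end difference was -4.81. Between NS-GFP3+ and NS-GFP2+, a contrast that did not choose the probes, the difference was -1.47 ± 0.34 (SE), with limma's adjusted p of 0.598, and of 0.0126 with the replicate number as a block.

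Cd79a, a signalling chain of the B cell receptor, read 10.01, 9.86 and 8.96 in NS-GFP1+, 7.49, 7.22 and 7.02 in NS-GFP2+, 6.25, 6.62 and 6.36 in NS-GFP3+ and 5.80, 6.01 and 5.56 in NS-GFP4+. No fraction overlapped another, and the probe stayed above the median until NS-GFP4+. Ebf1, a transcription factor needed to start the B lineage program, read 8.77, 8.47 and 8.11 in NS-GFP1+, 6.33, 5.83 and 6.25 in NS-GFP2+, 5.51, 5.59 and 5.11 in NS-GFP3+ and 4.24, 4.93 and 4.38 in NS-GFP4+. Its 4 fractions did not overlap either, with end-to-end differences of -3.93 for Ebf1 and -3.82 for Cd79a. Bst1, a surface enzyme also known as CD157 that is carried by early B lineage cells and bone marrow stroma, left at NS-GFP2+ and read 6.60, 6.39 and 6.57 in NS-GFP1+, 4.97, 4.92 and 4.98 in NS-GFP2+, 4.24, 3.26 and 4.50 in NS-GFP3+ and 2.58, 2.33 and 3.64 in NS-GFP4+. Its NS-GFP4+ and NS-GFP3+ arrays overlapped and the other neighbours did not. The NS-GFP4+ values of 2.58 and 2.33 came close to the lowest log2 values of the arrays, so the size of its fall is a lower bound.

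**Figure D2:**
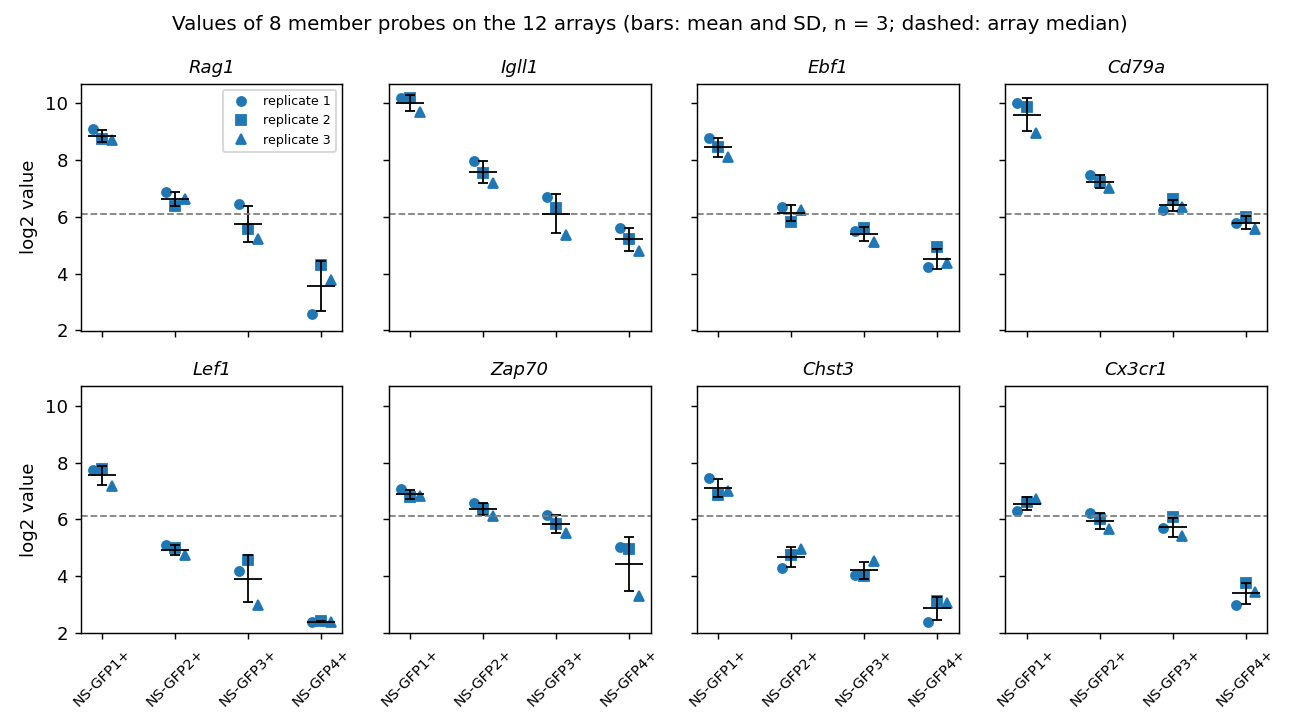
Deposited log2 values (vertical axis) of 8 member probes in the 4 fractions, 1 point per array, with mean and SD (n = 3) as bars and the array median as a dashed line. Lef1 and Chst3 are under the line from NS-GFP2+ on, Cd79a is above it until NS-GFP4+, and Rag1, with 2.58 to 4.31 in NS-GFP4+, ends far below it.

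Because Rag1, Igll1 and Cd79a fell together, their promoters are shown. The sequences are from RefSeq on GRCm38.p6, from 250 bases before to 50 bases after the annotated start of transcription, 5′ to 3′ on the strand of the gene. They span chr2:101649483-101649782 on the minus strand for Rag1, chr16:16863936-16864235 on the minus strand for Igll1 and chr7:24897247-24897546 on the plus strand for Cd79a. Capitals mark matches to the motifs searched.
Rag1: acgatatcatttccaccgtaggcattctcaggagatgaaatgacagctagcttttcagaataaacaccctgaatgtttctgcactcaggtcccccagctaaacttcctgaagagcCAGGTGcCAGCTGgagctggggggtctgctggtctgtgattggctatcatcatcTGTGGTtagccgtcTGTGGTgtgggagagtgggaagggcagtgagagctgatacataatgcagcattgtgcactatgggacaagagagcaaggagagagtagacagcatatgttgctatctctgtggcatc
Igll1: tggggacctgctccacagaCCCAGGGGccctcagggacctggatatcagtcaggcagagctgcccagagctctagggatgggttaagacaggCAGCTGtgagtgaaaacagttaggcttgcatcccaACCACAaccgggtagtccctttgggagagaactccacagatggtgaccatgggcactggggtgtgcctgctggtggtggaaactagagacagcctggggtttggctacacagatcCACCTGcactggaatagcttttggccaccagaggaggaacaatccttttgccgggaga
Cd79a: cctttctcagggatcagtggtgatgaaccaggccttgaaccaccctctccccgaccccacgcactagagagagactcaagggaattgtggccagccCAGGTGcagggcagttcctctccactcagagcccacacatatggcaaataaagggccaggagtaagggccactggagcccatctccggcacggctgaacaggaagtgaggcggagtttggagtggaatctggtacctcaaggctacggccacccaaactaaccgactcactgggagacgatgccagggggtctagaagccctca

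The motifs, searched on both strands, were CCCNNGGG of the EBF family, the E-boxes CAGGTG and CAGCTG that E proteins can bind, TGTGGT of the RUNX family and CTTTGA of the TCF and LEF family. The Rag1 promoter holds CAGGTG 135 and CAGCTG 128 bases before the start and TGTGGT at 81 and 67 bases. The Igll1 promoter holds an EBF match 231 bases, CAGCTG 158 bases, a RUNX match 123 bases and an E-box 8 bases before the start, and the Cd79a promoter holds CAGGTG at 154 bases. None of these matches overlaps another. RefSeq promoters were found for 107 of the 132 genes, 142 promoters in all. CCCNNGGG was in 14.1% of them, against 13.7% of all 32851 promoters, CAGGTG in 24.6% against 20.2%, CAGCTG in 18.3% against 16.3%, TGTGGT in 19.7% against 16.8% and CTTTGA in 14.8% against 16%. The shares among the genes described here were thus close to those of all promoters, and a match is a string of letters, not a bound site.

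Lef1, a transcription factor of Wnt signalling in early B and T cells, left at NS-GFP2+. It read 7.72, 7.77 and 7.16 log2 units in NS-GFP1+, 5.08, 4.97 and 4.72 in NS-GFP2+, 4.18, 4.57 and 2.98 in NS-GFP3+ and 2.38, 2.40 and 2.39 in NS-GFP4+, with no overlap between neighbours. The NS-GFP4+ intensities of 5.2, 5.2 and 6.1, against 184, 162 and 172 in NS-GFP1+, were near the lowest value of an array, and the end-to-end difference of -5.16 is a lower bound in size. Id3, an inhibitor of E proteins, also left at NS-GFP2+, and its means differed by -2.80 between the ends.

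The set also held receptors and adaptors of T and NK cells. Zap70, the kinase that relays T cell receptor signals, read 7.07, 6.78 and 6.81 in NS-GFP1+, 6.57, 6.35 and 6.13 in NS-GFP2+, 6.14, 5.82 and 5.50 in NS-GFP3+ and 5.01, 4.95 and 3.31 in NS-GFP4+. NS-GFP3+ and NS-GFP2+ met at 1 array, and the other neighbours stayed apart. Klrd1, the CD94 chain of NK cell receptors, read 7.25, 7.19 and 7.18 in NS-GFP1+, 6.66, 6.18 and 5.93 in NS-GFP2+, 5.55, 5.41 and 3.60 in NS-GFP3+ and 2.86, 3.94 and 2.47 in NS-GFP4+. NS-GFP4+ overlapped NS-GFP3+ there, and the end-to-end difference was -4.11. The NS-GFP4+ values of 2.86 and 2.47 came close to the lowest log2 values of the arrays, so that size is a lower bound. Icos, a costimulatory receptor of T cells, read 6.74, 7.08 and 6.74 in NS-GFP1+, 6.51, 6.40 and 6.42 in NS-GFP2+, 6.16, 6.39 and 6.06 in NS-GFP3+ and 5.31, 5.34 and 5.23 in NS-GFP4+, so the last step was its largest. The remaining lymphocyte genes, with end-to-end differences in log2 units, were Slamf6 (-3.02), the adaptors Grap2 (-2.52), Grap (-2.22) and Skap1 (-0.94), the costimulator Cd28 (-1.20), the chemokine receptor Cxcr3 (-0.91), the small GTPase Gimap7 (-0.87) and the T cell receptor segment Trgv1 (-0.61).

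Myeloid and innate genes formed a group of 8, of which 2 left at NS-GFP2+, 2 at NS-GFP3+ and 4 at NS-GFP4+, with a median end-to-end difference of -1.55. Cx3cr1, the receptor for fractalkine on monocytes and macrophages, read 6.29, 6.62 and 6.72 in NS-GFP1+, 6.21, 6.00 and 5.65 in NS-GFP2+, 5.68, 6.08 and 5.40 in NS-GFP3+ and 2.98, 3.74 and 3.44 in NS-GFP4+. On this probe the first 3 fractions sat close to the median and NS-GFP4+ was far below it. A brighter Cx3cr1 probe averaged 9.09, 8.24, 7.87 and 6.61 from NS-GFP1+ to NS-GFP4+ and stayed above the median on every array. Cxcr2, a receptor for neutrophil chemokines, was flat until the last step: it read 6.33, 6.30 and 6.19 in NS-GFP1+, 6.62, 6.26 and 6.59 in NS-GFP2+, 6.15, 6.45 and 6.63 in NS-GFP3+ and 5.63, 5.50 and 5.76 in NS-GFP4+. The first 3 of those overlapped. The others were Mst1r (-2.94), a receptor tyrosine kinase, Mpeg1 (-2.26), a pore-forming protein of macrophages, Trem3 (-1.56), Cd300c2 (-1.53), Aoah (-1.0), which deacylates lipopolysaccharide, and the decoy receptor Il1r2 (-0.55). Of the interferon-inducible p200 family, Ifi209 had 2 probes with end-to-end differences of -3.25 and -2.48, with the larger fall on the probe that was first under the median in NS-GFP2+ and the smaller on the one that left at NS-GFP4+; Ifi211 differed by -2.57. The Ifi203 probe in the set differed by -0.61, while 3 other Ifi203 probes differed by 0.02, -0.09 and -0.15, so that gene was not lower by every probe.

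Enzymes that build glycans were a group of 4, 3 of which left at NS-GFP2+. Chst3, a sulfotransferase of chondroitin, read 7.47, 6.85 and 7.0 in NS-GFP1+, 4.28, 4.74 and 4.96 in NS-GFP2+, 4.03, 4.02 and 4.54 in NS-GFP3+ and 2.38, 3.13 and 3.06 in NS-GFP4+. Its NS-GFP3+ and NS-GFP2+ arrays overlapped while both ends stood apart. The NS-GFP4+ value of 2.38 came close to the lowest log2 values of the arrays, so the size of its fall is a lower bound. Cmah, which makes N-glycolylneuraminic acid, read 8.50, 8.61 and 8.84 in NS-GFP1+, 7.80, 7.98 and 7.83 in NS-GFP2+, 7.47, 7.43 and 6.73 in NS-GFP3+ and 5.76, 5.73 and 5.50 in NS-GFP4+, with no overlap between fractions. The sialyltransferases St6gal1 and St8sia1 differed by -2.56 and -1.46 between the ends.

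Genes best known from nerve cells gave 10 probes of 9 genes, of which 6 left at NS-GFP4+. Gfra2, a receptor for neurturin, read 9.95, 9.87 and 9.36 in NS-GFP1+, 7.39, 7.39 and 7.08 in NS-GFP2+, 6.42, 6.16 and 4.81 in NS-GFP3+ and 5.06, 5.48 and 4.98 in NS-GFP4+. NS-GFP4+ overlapped NS-GFP3+ and the other neighbours did not overlap. Colq, the collagen tail that anchors acetylcholinesterase, read 8.78, 8.79 and 8.44 in NS-GFP1+, 7.13, 7.53 and 7.33 in NS-GFP2+, 6.75, 6.72 and 6.44 in NS-GFP3+ and 6.03, 5.35 and 5.68 in NS-GFP4+, so that all 4 fractions were separate. The probes of Ctnnd2, a catenin of synapses, were level between NS-GFP2+ and NS-GFP1+ and lower in NS-GFP3+: the first read 7.18, 6.76 and 7.23 in NS-GFP1+, 7.03, 6.77 and 6.97 in NS-GFP2+, 6.05, 6.16 and 6.72 in NS-GFP3+ and 5.97, 5.83 and 5.66 in NS-GFP4+. For both of its probes every NS-GFP3+ array lay below every NS-GFP2+ array, by -0.61 ± 0.18 and -0.55 ± 0.20 log2 units between means (SE).

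Metabolic enzymes were a group of 7 with a median end-to-end difference of -1.42, among them Kmo (-2.98), an enzyme of tryptophan breakdown, and Gpat3 (-2.40), which starts glycerolipid synthesis. Gpat3 read 7.42, 7.04 and 7.26 in NS-GFP1+, 5.21, 3.65 and 5.23 in NS-GFP2+, 5.04, 4.85 and 5.21 in NS-GFP3+ and 4.35, 4.70 and 5.48 in NS-GFP4+, so its whole fall lay in the first step and the last 3 fractions overlapped. Phosphatases gave 5 probes of 4 genes, led by Ptpro (-3.39), a receptor-type tyrosine phosphatase, with Dusp22 at -1.15 and -0.77 for its pair of probes. Epha2, an ephrin receptor, had its mean above the median until NS-GFP4+, with 1 NS-GFP3+ array under it, and read 9.01, 8.77 and 7.88 in NS-GFP1+, 7.80, 7.74 and 6.95 in NS-GFP2+, 7.28, 7.27 and 5.74 in NS-GFP3+ and 5.99, 5.95 and 4.86 in NS-GFP4+. Replicate 3 was the lowest in every fraction. The remaining 126 probes fell in none of these groups, with a median end-to-end difference of -1.0; among the largest were 3 unnamed ones, A_55_P1956598 at -4.83, A_55_P2063283 at -4.81 and A_55_P2079079 at -4.21, and, among those that left at NS-GFP4+, A_30_P01026525 at -2.75.

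The step from NS-GFP2+ to NS-GFP3+ is the one that the choice of the probes did not use. The mean was lower in NS-GFP3+ than in NS-GFP2+ for 148 of the 182 probes (81.3%), against 49.1% of the 20920 probes tested. Without NS-GFP3+ replicate 3 it was lower for 121 (66.5%), against 49.1% of the probes tested. The difference had a median of -0.26 log2 units over the 182 (quartiles -0.56 and -0.05, range -1.61 to 0.79), against 0.00 over the probes tested (quartiles -0.08 and 0.08), and its median over the 182 was -0.18 without that array. Within the numbered pairs, 125, 135 and 155 of the 182 were lower in NS-GFP3+, or 68.7%, 74.2% and 85.2%, against 50.6%, 46.9% and 51.3% of the probes tested.

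**Figure D3:**
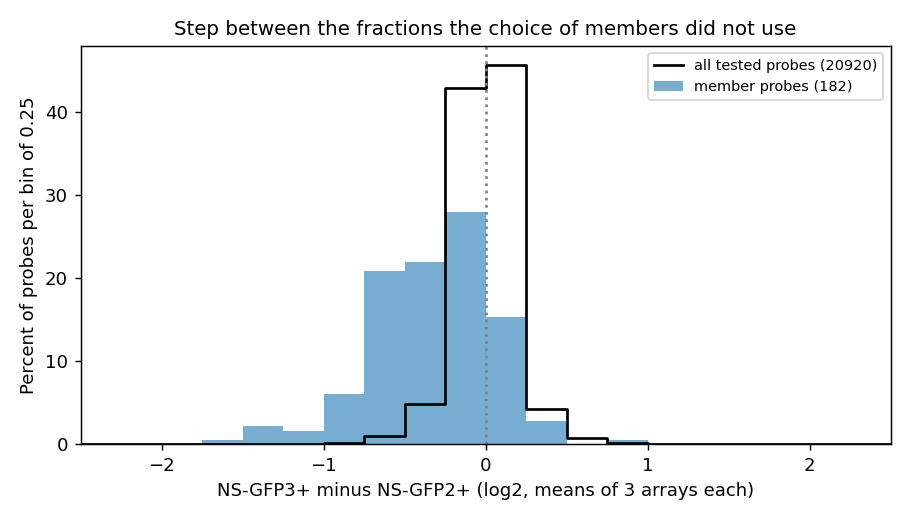
Percent of probes (vertical axis) by the difference NS-GFP3+ minus NS-GFP2+ in log2 units, in bins of 0.25, for the 182 probes (filled) and all 20920 tested probes (line). The filled bars lie to the left of the line, with medians of -0.26 and 0.00.

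No single probe passed limma's test between these fractions: 0 of the 182 were called lower at an adjusted p under 0.05, as were 0% of the probes tested, and the smallest adjusted p among the 182 was 0.264. At an unadjusted p under 0.05, 44 of the 182 (24.2%) were lower and 0 were higher in NS-GFP3+, where 2.28% of the probes tested were lower and 2.15% higher. All 3 NS-GFP3+ arrays lay under all 3 NS-GFP2+ arrays for 37 of the 182 (20.3%) and above them for 0, beside 4.72% and 4.29% of the probes tested. In all 3 numbered pairs NS-GFP3+ was lower for 90 (49.5%) and higher for 4 (2.20%), beside 17.1% and 16.6% of the probes tested. Without NS-GFP3+ replicate 3, 33 of the 182 (18.1%) were lower and 7 higher at an unadjusted p under 0.05, against 3.96% and 3.11% of the probes tested, and 47 were lower and 11 higher without overlap, against 12.1% and 11.3%. The lower side outnumbered the higher in the 182 with and without that array, and by less without it.

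With the replicate number as a block, 2 of the 182 were called lower, Igll1 and the unnamed A_30_P01030259 with an adjusted p of 0.0353, beside 0.115% of the probes tested. That unnamed probe read 7.79, 7.80 and 6.73 in NS-GFP1+, 7.14, 7.01 and 6.09 in NS-GFP2+, 6.39, 6.45 and 5.21 in NS-GFP3+ and 4.90, 5.31 and 3.98 in NS-GFP4+, with replicate 3 the lowest each time. By role, the middle step had a negative sign for 18 of 18 lymphocyte probes (median -0.63, with 7 free of overlap), for 7 of 8 myeloid and innate ones (median -0.22, with 0 free of overlap), for 4 of 4 glycan enzymes (median -0.56), for 9 of 10 nerve cell probes (median -0.48, with 5 free of overlap), for 3 of 4 p200 family probes (median -0.40, with 0 free of overlap), for 5 of 5 phosphatase probes (median -0.25) and for 4 of 7 metabolic enzymes (median -0.06). Without NS-GFP3+ replicate 3 the sign was negative for 16 of the lymphocyte probes (median -0.43), for 7 of the myeloid and innate ones (median -0.22), for 3 of the glycan enzymes (median -0.53), for 8 of the nerve cell probes (median -0.38), for 3 of the p200 family (median -0.17), for 4 of the phosphatase probes (median -0.32) and for 4 of the metabolic enzymes (median -0.01). Among the 126 probes in none of these groups, 98 were negative (median -0.22, with 21 free of overlap). Without NS-GFP3+ replicate 3, 76 of them were negative (median -0.11). With that array, 49.1% of all probes tested were negative and 4.72% were lower free of overlap. Without it, 49.1% of all probes tested were negative. No difference between the groups was tested. Ahr, the receptor for aryl hydrocarbons, was picked out after its values were seen. It read 5.31, 5.13 and 4.79 in NS-GFP3+ and 5.85, 5.86 and 5.93 in NS-GFP2+. The difference was -0.80 ± 0.17 log2 units (SE), with limma's adjusted p of 0.528. A second, brighter Ahr probe differed by 0.15 at the same step, with means of 7.59 in NS-GFP3+ and 7.44 in NS-GFP2+.

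The outer steps each share a fraction with the choice of the probes, so the counts below are descriptions. Between NS-GFP2+ and NS-GFP1+, 14 of the 182 were called lower by limma, beside 0.177% of the probes tested, and 34 with the replicate block, beside 0.822%. The 14 were Lef1, Igll1, Gfra2, Chst3, Ebf1, Cd79a, Colq, Fxyd6, Gpat3 and 5 unnamed probes. The count rested on single arrays: it was 6 without replicate 1 or without replicate 2 of NS-GFP1+, and 8, 9 and 6 without replicates 1, 2 and 3 of NS-GFP2+.

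Between NS-GFP4+ and NS-GFP3+, 23 were called lower, beside 0.617% of the probes tested, and 72 with the block, beside 2.54%. Those with a gene were Rag1, Chst3, Ptpro, Cx3cr1, Colq, Cmah, Kmo, Gm525, Rasal1, Rtn4rl1, 0610040J01Rik, Ppm1e, Speer2, Icos, Cd300c2, Slc9a9, 4933402N22Rik and Cxcr2. This count was 8 and 9 without replicates 1 and 2 of NS-GFP1+, and 11, 13 and 15 without replicates 1, 2 and 3 of NS-GFP2+, fractions that enter only through the spread and the filter. It was 5, 5 and 39 without replicates 1, 2 and 3 of NS-GFP3+, and 7, 5 and 6 without those of NS-GFP4+. Chst3 and Colq were in both sets of calls.

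The array holds 80 other probes for 60 of the 132 genes. Of these, 45 were bright enough to be tested, and 41 of the 45 had a lower mean in NS-GFP4+ than in NS-GFP1+, with a median difference of -0.45 log2 units. The arrays did not overlap for 31 that were lower, where 14.6% of all probes tested were, and for 1 that was higher, where 14.9% were. The Lef1, Cx3cr1 and Zap70 genes each had such a second probe, with differences of -3.13, -2.48 and -2.05. These second probes were brighter, with NS-GFP4+ means of 6.04, 6.61 and 6.24, and that of Lef1 exceeded the median on all 3 NS-GFP2+ arrays. Brighter Mpeg1 and Kmo probes, at 9.42 and 7.13 in NS-GFP4+, stayed above the median on every array. Brighter Icos and Cmah probes exceeded it on 2 of 3 NS-GFP4+ arrays, as did that of Zap70. The fraction at which a probe left thus describes that probe, not its gene. The 1 that was higher was of Ahr, whose second probe averaged 7.80 in NS-GFP4+ and 7.29 in NS-GFP1+ while its member probe differed by -1.51, so the pair disagree in direction. A second Hexim2 probe read 15.25 in NS-GFP4+ and 15.14 in NS-GFP1+, against -0.98 between the ends for the member probe. The other means that were higher in NS-GFP4+ were of a probe of Ifi203, by 0.02, and of Mtus1, by 0.08, and some others were nearly level, such as the brighter Ms4a4c probe at -0.09. These probes measure the same genes on the same arrays and add no independent sample.

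Marker lists of the cell types that an LSK sort could hold were read on the same arrays, with the brightest probe of each gene. Of 16 tested genes of the lymphoid-primed progenitor list, 14 were called lower in NS-GFP4+ than in NS-GFP1+ and 0 higher, with a median of -2.26 log2 units, against -0.01 over all probes tested. Rag1 and Igll1 are on this list and among the 182, so the choice of the probes fixed their direction. Over all probes tested, 5.94% were called lower. On this list 11 of the 16 lay above the median on all 12 arrays. One of them was Vpreb1, the partner of Igll1 in the surrogate light chain, which averaged 8.56 in NS-GFP4+ and 12.61 in NS-GFP1+, a difference of -4.04 with limma's adjusted p of 3.97e-06. Dntt, which adds bases at receptor gene joints, differed by -2.11, and the interleukin-7 receptor chain Il7r, under the median on 1 of 3 NS-GFP4+ arrays, by -3.08. Flt3, a receptor tyrosine kinase of early progenitors, differed by -0.85. Notch1 and Il12rb1 were not called, at -0.07 and 0.43. Between NS-GFP3+ and NS-GFP2+ all 16 had a negative difference, with a median of -0.37, and 0 were called by limma, with 6 lower and 0 higher at an unadjusted p under 0.05; without NS-GFP3+ replicate 3, 11 of the 16 were negative with a median of -0.21. The summed signal of the listed genes was 0.0327% to 0.0457% of an array in NS-GFP4+ and 0.121% to 0.136% in NS-GFP1+, and its part in the falls described above was not tested.

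The stem cell list ran the other way. Of its 23 tested genes, 20 were called higher in NS-GFP4+ than in NS-GFP1+ and 0 lower, with a median of 1.44. Over all probes tested, 7.27% were called higher. Slamf1, Hoxb5 and Tek were tested only because all 3 NS-GFP4+ arrays exceeded the median, so the filter favoured a rise for them. Mecom, Trpc6 and Prdm16 passed the filter through later fractions and not through NS-GFP1+, so it favoured a rise for these genes too. Among the genes left out as dim, Fgd5 and Neo1 had a higher mean in NS-GFP4+ than in NS-GFP1+ and Gprc5c a lower one. Procr, the endothelial protein C receptor carried by stem cells, averaged 11.58 in NS-GFP4+ and 9.41 in NS-GFP1+, and none of that list is among the 182. Of 17 tested myeloid progenitor genes 11 were called lower and 0 higher, none of them among the 182. Of 15 immediate early genes, which can respond to cell handling, 5 were called higher and 0 lower. Leaving out NS-GFP3+ replicate 3 changed these list calls by at most 1 gene. That array enters a comparison of NS-GFP4+ with NS-GFP1+ only through the spread, so a small change was built in.

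**Figure D4:**
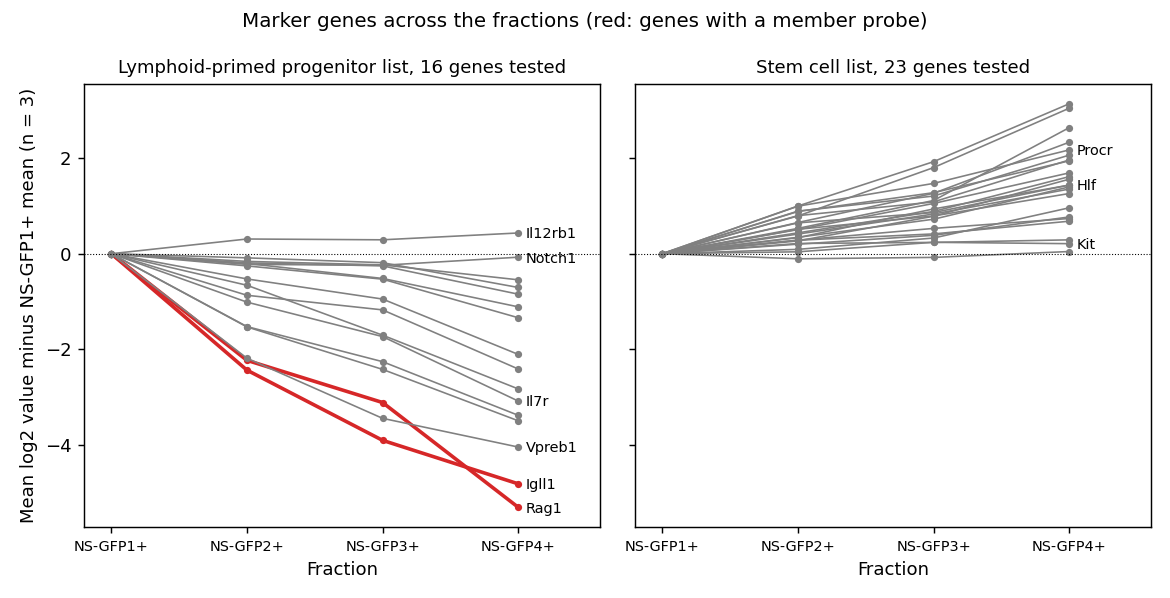
Mean log2 value minus the NS-GFP1+ mean (vertical axis, n = 3 arrays) by fraction for the tested genes of the lymphoid-primed progenitor list (left, 16 genes) and the stem cell list (right, 23 genes), 1 line per gene, with genes that have a probe among the 182 in red. Rag1 and Igll1 end lowest on the left, at -5.30 and -4.81, and no gene of the right panel ends below its NS-GFP1+ mean. Slamf1, Hoxb5 and Tek on the right were tested through NS-GFP4+ alone, and Mecom, Trpc6 and Prdm16 through later fractions but not NS-GFP1+.

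Markers of mature cells gave a mixed reading. Of 8 tested B cell genes, Cd79a, Ebf1 and Cd79b were called lower in NS-GFP4+ than in NS-GFP1+. The Cd79a and Ebf1 probes read here belong to the set described above, so the choice of the probes fixed their direction. Ebf1 also passed the filter only through NS-GFP1+. Pax5 and Ms4a1 lay below the array median on all 12 arrays. The summed signal of the B cell list was 0.0072% to 0.0108% in NS-GFP4+ and 0.0105% to 0.0146% in NS-GFP1+. Of 5 tested T and NK cell genes, Zap70 and Nkg7 were called lower, and Cd3d, Cd8a, Ncr1 and Klrb1c lay below the median on every array; the list's sum was 0.0081% to 0.0096% in NS-GFP4+ and 0.0106% to 0.0114% in NS-GFP1+. Of 5 tested monocyte and macrophage genes, Cx3cr1 was called lower, while Cd14, Adgre1, C1qa and Mrc1 were below the median throughout and the sum was 0.0769% to 0.0805% in NS-GFP4+ and 0.0733% to 0.0829% in NS-GFP1+. Of the 7 tested neutrophil genes limma called 0 in either direction, with 1 higher at an unadjusted p under 0.05, and of 17 genes of the nucleolus and ribosome making it called 0, with 0 at an unadjusted p under 0.05. Of 5 mast cell and basophil genes 2 were called lower, of 7 stroma and endothelium genes 2 lower and 1 higher, of 15 erythroid and megakaryocyte genes 1 lower and 4 higher, of 13 interferon response genes 2 lower and 2 higher, and of 18 cell cycle genes 2 higher. The part of mature cells in the falls described above was not tested.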

How the data were processed

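Expression was measured on 12 one-colour arrays, 3 for each of 4 fractions sorted from LSK cells, grouped by the sample labels. The authors deposited a table of log2 values and, per array, a file of linear intensity values; the scanner software, background treatment and normalization were not given in the sources used here. The columns of the log2 table share nearly 1 distribution. The intensity files of NS-GFP3+ replicate 3 and NS-GFP2+ replicate 3 are identical, so the log2 table was analysed. An alternative used 11 intensity files, each scaled to its 75th percentile, with the shared file taken as NS-GFP2+ replicate 3. The number of arrays limits the precision.

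Of 42022 probes (49 control spots left out), 20920 (49.8%) were tested, namely those that exceeded the array median in every sample of some fraction. A limma model (limma 3.58.1, R 4.3.3) estimated 1 mean per fraction over all 12 arrays by lmFit and eBayes, with Benjamini-Hochberg adjustment over all tested probes and a threshold of 0.05, after a check on simulated data. After subtracting the mean of each fraction, arrays of NS-GFP3+ and NS-GFP2+ that carry the same number correlated with r of 0.41 to 0.75. In the other comparisons the same number gave r of at least 0.16. Some unlike numbers correlated more: r was 0.34 for NS-GFP2+ replicate 2 with NS-GFP1+ replicate 1, beside 0.16 for replicate 1 of both. Replicate 3 correlated negatively with replicates 1 and 2 in every comparison. The correlations thus set replicate 3 apart and do not settle how replicates 1 and 2 pair. The numbers, which come from the labels, were used as the pairing.

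GEO's platform annotation, which can be old, gave 1 gene for 24406 probes, several for 0 and none for 17616; RefSeq tables (GRCm38.p6) gave names and promoters. The members and 14 marker lists were chosen with earlier results of these data known. Named genes were the 12 largest falls, the 6 largest for each fraction at which probes left the median, those nearest the threshold, genes on a marker list and genes with 2 probes; others named were picked after their values were seen. Plots used Python 3.11.15 and matplotlib 3.10.9.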

Additional observations from a re-analysis of the deposited data

How the results depend on the processing

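The same 182 probes met the rule in the per-array files. The rule reads only on which side of its own array's median a probe lies. A rescaling that keeps the order of the probes cannot change that, so nothing is read from this match. A margin of 0.5 log2 units from the median left 33, of which 10 left at NS-GFP2+, 17 at NS-GFP3+ and 6 at NS-GFP4+. With the 60th percentile in place of the median, 39 left at NS-GFP2+, and asking for all 3 arrays under the median gave 29, 31 and 122. With the replicate block, called probes and called members of the 182 numbered 36 and 2 for NS-GFP3+ against NS-GFP2+, where the fit without it called 0 and 0, 473 and 34 for NS-GFP2+ against NS-GFP1+, where it called 87 and 14, and 1057 and 72 for NS-GFP4+ against NS-GFP3+, where it called 223 and 23; for NS-GFP4+ against NS-GFP1+ the block gave 4558 calls, where the fit without it gave 2764. Array weights gave 13 and 1, 534 and 38, 1744 and 97, and 5334 calls in the same order. Without the filter on dim probes there were 43 calls and 8 members for NS-GFP2+ against NS-GFP1+, and 44 and 3 for NS-GFP4+ against NS-GFP3+. Fitting only the 2 fractions compared gave 27 calls for NS-GFP2+ against NS-GFP1+, and 21 with 2 members for NS-GFP4+ against NS-GFP3+. The 11 per-array files gave 359 calls for NS-GFP4+ against NS-GFP3+ and 1 call when NS-GFP3+ was set against NS-GFP2+. The other 33 of 64 such values stayed within 1.5 times of those reported.

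Leaving out 1 array at a time gave 0 to 2 calls and 0 members for NS-GFP3+ against NS-GFP2+, 18 to 88 calls and 6 to 13 members for NS-GFP2+ against NS-GFP1+, 43 to 349 calls and 5 to 39 members for NS-GFP4+ against NS-GFP3+, and 1926 to 2900 calls and 121 to 148 members for NS-GFP4+ against NS-GFP1+. Without NS-GFP3+ replicate 3 both comparisons of NS-GFP3+ had their highest counts, and without NS-GFP2+ replicate 3 came the lowest for NS-GFP2+ against NS-GFP1+. The rule then took 182 to 264 probes, with 64 to 136 leaving at NS-GFP2+, 34 to 58 at NS-GFP3+ and 58 to 103 at NS-GFP4+, and 121 to 159 of the 182 had a lower mean in NS-GFP3+ than in NS-GFP2+. The cause of these shifts was not tested. The alternatives without NS-GFP3+ replicate 3 for the probes' own counts and the marker lists were added after seeing the data.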
